A study of Mus musculus with 9 samples.

Results

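The genes described here encode the subunits of AMP-activated protein kinase (AMPK) and the 2 kinases best known for switching it on. They were chosen by name as Prkaa1 and Prkaa2 (catalytic alpha subunits), Prkab1 and Prkab2 (beta subunits), Prkag1 and Prkag2 (gamma subunits), Stk11 (the kinase LKB1) and Camkk2 (a calcium-dependent kinase). All probe sets whose platform annotation gave exactly 1 of these symbols were taken. That gave 21 probe sets for 8 genes, out of 34945 probe sets with 1 symbol for 18193 genes.

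AMPK is a complex of 1 alpha, 1 beta and 1 gamma subunit that senses a fall in cellular energy. The gamma subunit binds AMP, ADP or ATP, the beta subunit holds the complex together and can bind glycogen, and the alpha subunit phosphorylates targets that slow energy-consuming synthesis and favour fuel oxidation. LKB1 and CaMKK2 activate the complex by phosphorylating the alpha subunit, LKB1 in energy stress and CaMKK2 when calcium rises. In the heart AMPK takes part in the control of glucose uptake, fatty acid oxidation and growth, and in humans mutations of PRKAG2 cause a cardiomyopathy with glycogen storage.

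Male C57BL/6 mice had either transaortic constriction (TAC, 4 arrays) or sham surgery (5 arrays), and their left ventricle was profiled on Affymetrix expression arrays 6 weeks later. TAC narrows the aorta, so that the ventricle pumps against a raised pressure, and the labels give it as the means of inducing heart failure. All 9 samples share strain, sex, organ and time point, and the labels name no transgene, deletion or drug. No label says outright that the 9 arrays come from 9 animals, so the p-values refer to the variation among these arrays, part of which may be technical.

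Expression was given as RMA values (log2), and every array held the same sorted values with a median of 6.57, so a general rise or fall of RNA cannot be seen in them. Differences are TAC minus sham, with the standard error (SE) of a limma fit, and a gene or probe set was called at a Benjamini-Hochberg adjusted p below 0.05 over all features of its fit. Sham replicate 2 stood apart, with Pearson correlations across genes of 0.987 to 0.993 with the other sham arrays, which correlated at 0.995 to 0.997 among themselves, and results are given below without it where it matters. All 10 cardiomyocyte markers were measured, and their mean level was 14.26 to 14.28 in TAC arrays and 14.30 to 14.34 in sham arrays, near the highest value of the table, 14.799. In the gene fit 1 of them was lower, the cardiac troponin I gene Tnni3 (-0.16, adjusted p = 0.0475 in limma). Markers of other cells were counted too, where 12.8% of all genes were higher and 12.3% lower. Of 9 fibroblast markers 6 were higher and 0 lower, with mean levels of 11.76 to 12.07 in TAC arrays and 10.92 to 11.27 in sham arrays. Pdgfra (0.04), Tcf21 (0.13) and Gsn (-0.0049) did not pass. Of 9 macrophage markers 7 were higher and 0 lower, with mean levels of 9.89 to 10.01 in TAC arrays and 9.03 to 9.51 in sham arrays. Cd68 (0.47) did not pass, nor did Cd163, which went the other way (-0.40, adjusted p = 0.0564 in limma). Of 8 smooth muscle and pericyte markers 4 were lower (Myh11, Acta2, Kcnj8 and Abcc9, by 0.34 to 0.69) and 2 higher (Tagln and Pdgfrb), with mean levels of 10.21 to 10.42 in TAC arrays and 10.35 to 10.59 in sham arrays. Of 4 atrial markers 2 were higher, Nppa (2.14) and Myl4 (0.45), with mean levels of 7.98 to 8.41 in TAC arrays and 7.16 to 7.79 in sham arrays. Myl7 (0.42) and the dim Sln (-0.18) did not pass, and whether the atrial list reflects atrial cells was not tested. Of 9 endothelial markers 1 was higher (Vwf) and 1 lower (Kdr), with mean levels of 10.21 to 10.36 in TAC arrays and 10.21 to 10.47 in sham arrays. None of the measured markers of lymphocytes (7), adipocytes (4), erythroid cells (4) and Schwann cells (3) passed in the limma fit, and 2 of them, Adipoq and Alas2, had an unadjusted p below 0.05. Their part in the results below was not tested. In such bulk tissue fewer cells of a type and less RNA per cell cannot be told apart.

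The beta and gamma subunit genes changed in opposite directions within each paralogue pair. Prkab2 and Prkag2 were higher in TAC than in sham ventricles, and Prkab1 and Prkag1 were lower. Camkk2 was higher, and Stk11, Prkaa1 and the brightest probe set of Prkaa2 did not pass the threshold. With the brightest probe set standing for each gene, 3 of the 8 genes rose, against 12.8% of all genes, and 2 fell, against 12.3% of all genes. Of the 21 probe sets 8 rose, against 8.87% of all probe sets, and 3 fell, against 8.86% (5 fell without sham replicate 5). All TAC values lay above all sham values in 9 of the 21, against 10.2% of all probe sets, and below them in 3, against 9.67%. The median difference of the 8 genes was 0.10, and that of all 18193 genes was -0.0038. The members were chosen with earlier results of these data known, so these shares are no test of the set.

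**Figure D1:**
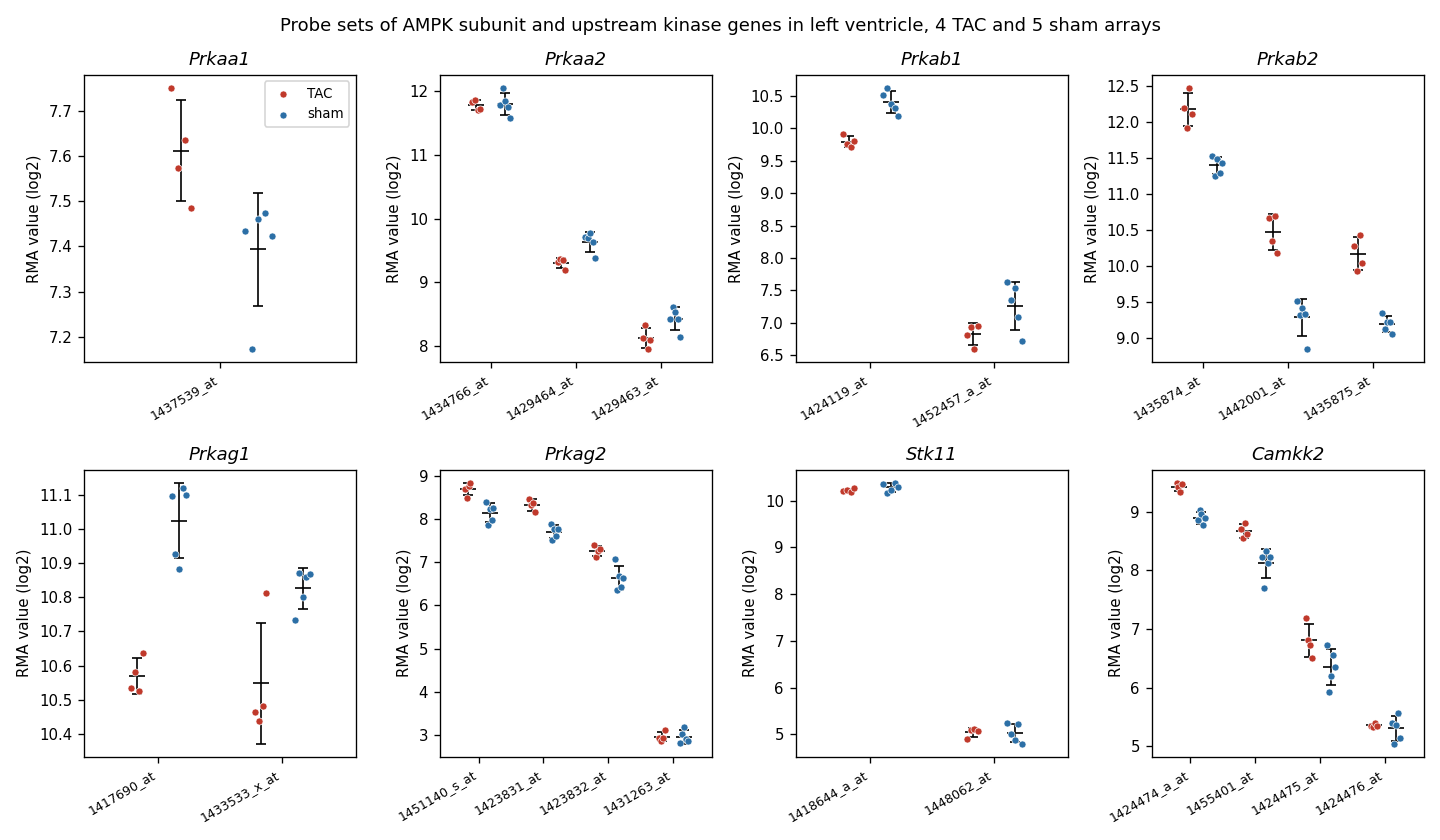
RMA values (log2) of each probe set of the 8 genes, with TAC arrays (red, n = 4) left of sham arrays (blue, n = 5), and bars for the mean and SD; each panel has its own vertical range. The TAC points lie above all sham points in the 3 Prkab2 probe sets and in 3 of the 4 Prkag2 probe sets, and below them in the brightest probe sets of Prkab1 and Prkag1.

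The start sites of the oppositely changed beta and gamma genes are shown because each pair encodes alternative subunits from separate promoters. The sequences are the 250 bases before each RefSeq start in build GRCm38.p6, written on the gene's strand, with GC boxes, ETS sites, CCAAT boxes and MCAT sites of either strand in capitals. The window of Prkab2 is chr3:97657962-97658211 on the plus strand. That of Prkab1 is chr5:116024429-116024678 on the minus strand, and that of Prkag1 is chr15:98831509-98831758 on the minus strand. RefSeq gives 3 starts for Prkag2, all on the minus strand, with windows chr5:25100643-25100892, chr5:24995754-24996003 and chr5:24908510-24908759. The probe sets were not assigned to these starts.
Prkab2: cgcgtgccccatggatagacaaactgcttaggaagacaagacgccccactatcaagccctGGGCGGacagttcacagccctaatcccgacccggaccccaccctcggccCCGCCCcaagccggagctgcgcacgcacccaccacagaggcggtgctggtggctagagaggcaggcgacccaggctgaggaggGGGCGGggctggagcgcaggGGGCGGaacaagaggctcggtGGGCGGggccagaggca
Prkab1: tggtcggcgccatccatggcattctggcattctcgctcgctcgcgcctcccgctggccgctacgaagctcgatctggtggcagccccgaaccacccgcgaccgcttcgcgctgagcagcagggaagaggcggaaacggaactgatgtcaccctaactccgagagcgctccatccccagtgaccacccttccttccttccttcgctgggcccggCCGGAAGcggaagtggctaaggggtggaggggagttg
Prkag2 start 1: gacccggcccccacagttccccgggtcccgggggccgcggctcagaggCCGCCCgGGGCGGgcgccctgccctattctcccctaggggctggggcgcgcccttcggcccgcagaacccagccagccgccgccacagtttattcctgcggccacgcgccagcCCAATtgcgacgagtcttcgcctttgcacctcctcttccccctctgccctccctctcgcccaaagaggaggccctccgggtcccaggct
Prkag2 start 2: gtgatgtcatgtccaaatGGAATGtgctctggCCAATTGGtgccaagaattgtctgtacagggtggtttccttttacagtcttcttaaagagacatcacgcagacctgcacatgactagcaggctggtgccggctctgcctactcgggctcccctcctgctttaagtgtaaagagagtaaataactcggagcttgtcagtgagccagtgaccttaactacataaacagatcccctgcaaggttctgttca
Prkag2 start 3: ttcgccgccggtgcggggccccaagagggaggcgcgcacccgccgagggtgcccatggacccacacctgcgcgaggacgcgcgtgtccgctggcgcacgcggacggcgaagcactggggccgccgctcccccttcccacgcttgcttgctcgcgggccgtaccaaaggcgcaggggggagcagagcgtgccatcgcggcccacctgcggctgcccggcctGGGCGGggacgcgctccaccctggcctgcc
Prkag1: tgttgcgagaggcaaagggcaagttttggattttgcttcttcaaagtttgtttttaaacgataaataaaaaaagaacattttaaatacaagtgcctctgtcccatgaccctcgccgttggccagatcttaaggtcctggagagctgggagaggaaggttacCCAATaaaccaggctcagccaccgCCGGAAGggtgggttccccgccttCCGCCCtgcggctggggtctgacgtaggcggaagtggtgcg

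The GC box GGGCGG occurred 5 times in the Prkab2 window and 0 times in the Prkab1 window, and 32.7% of 32851 such windows in RefSeq held at least 1. It occurred 2, 0 and 1 times in the 3 Prkag2 windows and 1 time in that of Prkag1. In the windows of Prkaa1, Prkaa2, Stk11 and Camkk2, not shown, it occurred 5, 2, 0 and 1 times. The ETS site CCGGAAG, found in 6.91% of windows, occurred 1 time each in the windows of Prkab1 and Prkag1. It occurred 0 times in those of Prkab2, Prkag2, Prkaa1, Prkaa2, Stk11 and Camkk2. The CCAAT box, found in 33.8% of windows, occurred 1 time in the Prkag1 window and 1, 2 and 0 times in those of Prkag2. There the 2 copies overlap on opposite strands. The Stk11 window held the CCAAT box 3 times, and those of Prkab1, Prkab2, Prkaa1, Prkaa2 and Camkk2 held it 0 times. The MCAT site CATTCC, found in 12.6%, occurred 1 time, before the second Prkag2 start. The E-box CACGTG (6.02% of windows), the CRE TGACGTCA (1.55%) and the ERR site TCAAGGTCA (0.387%) were in none of the 6 windows shown. These matches describe letters and not bound sites, and their relation to the changes was not tested.

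Prkab2, which encodes the beta2 subunit, had the largest difference of the 8 genes at its brightest probe set. That probe set, 1435874_at, read 12.20, 11.92, 12.48 and 12.11 in the TAC arrays, against 11.52, 11.25, 11.49, 11.30 and 11.44 in the sham arrays. All TAC values lay above all sham values, as they did in 13% of all genes. The means were 12.18 ± 0.23 in TAC and 11.40 ± 0.12 in sham (SD, n = 4 and 5). The difference was 0.77 (SE 0.11, adjusted p = 0.000606 in limma over all genes), or 1.71-fold. The other 2 probe sets rose by more. Probe set 1442001_at read 10.67, 10.35, 10.70 and 10.18 in TAC arrays, against 9.52, 9.32, 9.42, 9.34 and 8.86 in sham arrays, a difference of 1.18 (SE 0.15), or 2.27-fold. Probe set 1435875_at read 10.27, 9.93, 10.44 and 10.05 in TAC arrays, against 9.35, 9.13, 9.23, 9.23 and 9.07 in sham arrays, a difference of 0.97 (SE 0.11), or 1.96-fold. Neither overlapped between the groups, and their adjusted p-values over all probe sets were 0.00041 and 0.000187 in limma. Among the TAC arrays replicates 1 and 3 were the higher and replicates 2 and 4 the lower in all 3 probe sets.

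Prkab1, which encodes the beta1 subunit, fell. Its brighter probe set, 1424119_at, read 9.92, 9.76, 9.71 and 9.80 in the TAC arrays, against 10.51, 10.63, 10.37, 10.32 and 10.19 in the sham arrays. Every TAC value lay below every sham value, as in 12.2% of all genes. The difference was -0.61 (SE 0.09, adjusted p = 0.000921 in limma over all genes), so that the signal in TAC arrays was 0.656 of that in sham arrays. The dimmer probe set, 1452457_a_at, differed by -0.44 (SE 0.17) but did not pass (adjusted p = 0.113 over all probe sets in limma). It read 6.81, 6.94, 6.60 and 6.95 in TAC arrays, against 7.63, 7.35, 7.53, 7.09 and 6.71 in sham arrays, and sham replicate 5 lay within the TAC range. Without that array the difference was -0.57 and passed (adjusted p = 0.0161).

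Prkag2 encodes the gamma2 subunit, a nucleotide-binding subunit of AMPK, and it rose. The brightest probe set, 1451140_s_at, read 8.71, 8.49, 8.76 and 8.84 in TAC arrays, against 8.40, 7.86, 8.24, 7.99 and 8.26 in sham arrays. The groups did not overlap, although TAC replicate 2 and sham replicate 1 lay close together. The difference was 0.55 (SE 0.12, adjusted p = 0.00656 in limma over all genes), or 1.46-fold. The suffix of this probe set marks probes that can match transcripts of more than 1 gene. Neither of the next 2 probe sets carries it, and both rose. Probe set 1423831_at differed by 0.62 (SE 0.10, adjusted p = 0.0014 in limma over all probe sets), with 8.47, 8.32, 8.37 and 8.16 in TAC arrays, against 7.89, 7.52, 7.77, 7.60 and 7.77 in sham arrays. Probe set 1423832_at differed by 0.64 (SE 0.13, adjusted p = 0.00817), with 7.12 to 7.39 in TAC arrays and 6.36 to 7.07 in sham arrays. The last probe set, 1431263_at, lay near the bottom of the scale at 2.86 to 3.12 in TAC arrays and 2.80 to 3.19 in sham arrays and differed by 0.0071 (adjusted p = 0.975 in limma).

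Prkag1, which encodes the gamma1 subunit, fell. Probe set 1417690_at read 10.53, 10.58, 10.52 and 10.64 in TAC arrays, against 11.10, 10.93, 10.88, 11.12 and 11.10 in sham arrays. All TAC values lay below all sham values. The difference was -0.46 (SE 0.07, adjusted p = 0.00109 in limma over all genes), a TAC signal of 0.729 of the sham signal. Its other probe set, 1433533_x_at, whose suffix marks possible cross-hybridisation, read 10.46, 10.44, 10.48 and 10.81 in TAC arrays, against 10.73, 10.87, 10.80, 10.86 and 10.87 in sham arrays. Only TAC replicate 4 lay within the sham range there. The difference of -0.28 (SE 0.09) missed the threshold (adjusted p = 0.0557 in limma over all probe sets), and without TAC replicate 4 it was -0.37 and passed (adjusted p = 0.00744).

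**Figure D2:**
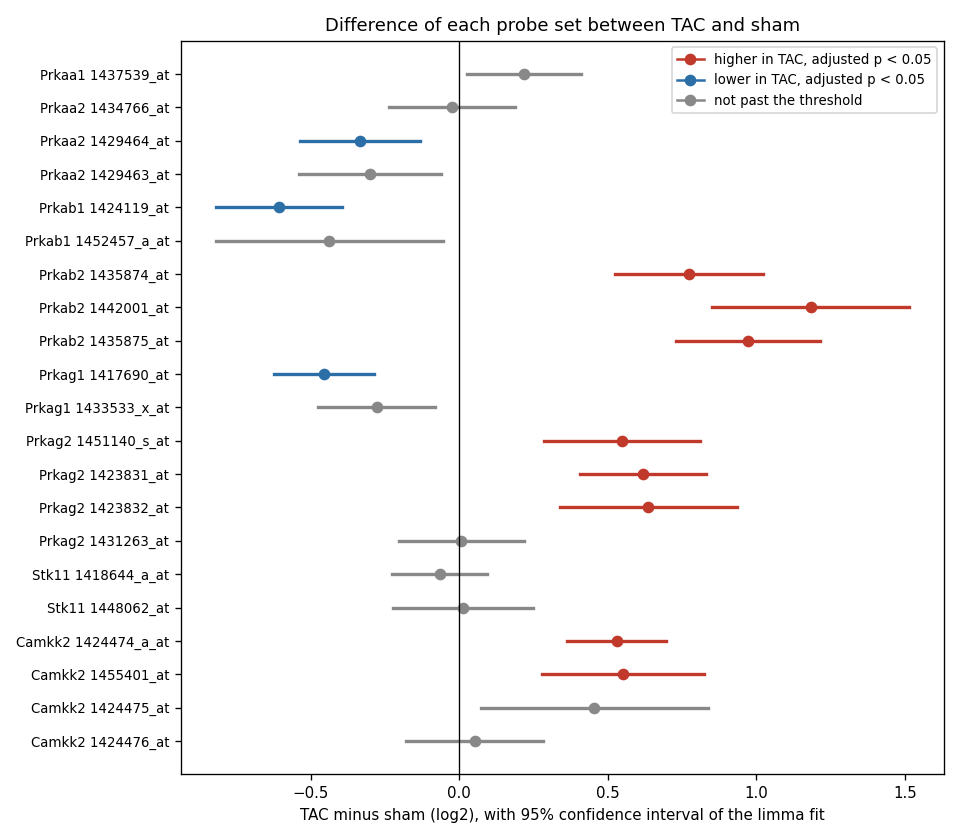
Log2 differences (TAC minus sham) of each of the 21 probe sets and their 95% confidence intervals from the limma fit; red and blue mark probe sets that were higher or lower at an adjusted p below 0.05 over all probe sets. The 8 red probe sets belong to Prkab2, Prkag2 and Camkk2, and the 3 blue ones to Prkaa2, Prkab1 and Prkag1.

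Whether the paralogues of a subunit changed unequally was tested within arrays, as the difference between the brightest probe sets of both genes. The level of such a difference depends on the probes, and its change between groups is what was compared. The SE of each pair difference was pooled from the variances of both groups and is not that of a limma fit. Prkab2 minus Prkab1 was 2.28, 2.16, 2.77 and 2.31 in TAC arrays, against 1.01, 0.63, 1.12, 0.97 and 1.24 in sham arrays. It was higher in TAC by 1.38 (SE 0.17), so the ratio of the beta2 to the beta1 signal was 2.61-fold higher. Prkag2 minus Prkag1 was -1.83, -2.09, -1.77 and -1.80 in TAC arrays, against -2.70, -3.06, -2.65, -3.13 and -2.84 in sham arrays. It was higher in TAC by 1.00 (SE 0.13), a 2.01-fold higher ratio. Both pairs were without overlap between the groups. Each had a two-sided exact permutation p of 0.00794, the smallest that the 126 splits of the arrays into 4 and 5 can give, and 0.0119 after adjustment over the 3 pairs tested. The brightest probe sets of both genes of a pair were already without overlap, in opposite directions, so the pair differences could not overlap. These small p-values therefore restate the single-gene results and are no separate support for them. Without sham replicate 2 the differences were 1.29 and 0.957. Over all combinations of probe sets, Prkab2 minus Prkab1 was higher in TAC in 6 of 6, by 1.21 to 1.79, with no overlap in any of the 6. Prkag2 minus Prkag1 was higher in 8 of 8, by 0.285 to 1.09, with no overlap in 6 of them. The lowest values came from the dim probe set 1431263_at. These directions were fixed in advance, because each Prkab2 and Prkag2 probe set differed upward and each Prkab1 and Prkag1 probe set downward. Combinations of probe sets that were each without overlap could not overlap either. The combinations therefore restate the single probe sets and are no separate support.

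**Figure D3:**
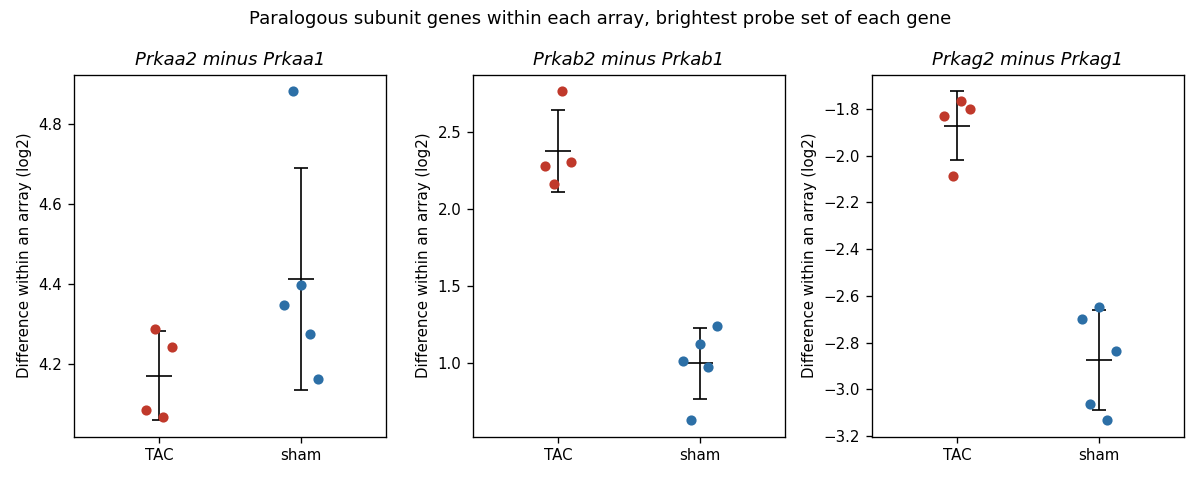
Difference between paralogous subunit genes within each array on the log2 scale (Prkaa2 minus Prkaa1, Prkab2 minus Prkab1, Prkag2 minus Prkag1), TAC arrays left and sham arrays right, with mean and SD; each panel has its own vertical range. The beta and gamma pairs are higher in every TAC array than in every sham array, by 1.38 and 1.00 on average, and the alpha pair overlaps.

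For the catalytic subunit genes the probe sets did not all behave alike. Prkaa2, which encodes alpha2, the main catalytic subunit of heart muscle, was measured by 3 probe sets. The brightest, 1434766_at, read 11.84, 11.86, 11.70 and 11.73 in TAC arrays, against 11.78, 12.06, 11.86, 11.75 and 11.59 in sham arrays, and the groups overlapped. In the gene fit its difference was -0.02 (95% confidence interval -0.23 to 0.18), which did not pass (adjusted p = 0.888 in limma). Probe set 1429464_at fell, with 9.31, 9.36, 9.35 and 9.19 in TAC arrays, against 9.72, 9.70, 9.78, 9.63 and 9.38 in sham arrays. The TAC values lay below all sham values, with a difference of -0.33 (SE 0.09, adjusted p = 0.0284 in limma over all probe sets). That call was lost when any of 7 arrays was omitted singly, the highest adjusted p being 0.0729 without TAC replicate 4, and was kept without sham replicate 2 or without sham replicate 5. Probe set 1429463_at differed by -0.30 (SE 0.11), with 7.96 to 8.34 in TAC arrays and 8.15 to 8.61 in sham arrays, and did not pass (adjusted p = 0.0836), except without sham replicate 5 (-0.37, adjusted p = 0.0256).

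Prkaa1, which encodes alpha1, had a single probe set, 1437539_at. It read 7.75, 7.57, 7.64 and 7.49 in TAC arrays, against 7.43, 7.17, 7.46, 7.47 and 7.42 in sham arrays. The lowest TAC value lay just above the highest sham value. The difference of 0.22 (SE 0.08) did not pass in limma over all genes (adjusted p = 0.0839), and it was 0.16 without sham replicate 2, the lowest sham array. The single-value exact permutation test, two-sided and not adjusted over genes, gave p = 0.00794. Prkaa2 minus Prkaa1 within arrays was 4.09, 4.29, 4.07 and 4.24 in TAC arrays, against 4.35, 4.88, 4.40, 4.27 and 4.16 in sham arrays, with overlap. Its difference of -0.24 (SE 0.15) did not pass (exact permutation p = 0.119, also after adjustment over the 3 pairs). With the mean of the 3 Prkaa2 probe sets in place of the brightest it was -0.44 and passed (exact permutation p = 0.0159).

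Of the upstream kinases Camkk2 rose and Stk11 did not pass. Camkk2 at its brightest probe set, 1424474_a_at, read 9.49, 9.42, 9.34 and 9.46 in TAC arrays, against 8.85, 9.02, 8.96, 8.77 and 8.89 in sham arrays. The groups were clearly apart, and the difference was 0.53 (SE 0.07, adjusted p = 0.000387 in limma over all genes), or 1.44-fold. Probe set 1455401_at rose by 0.55 (SE 0.12, adjusted p = 0.011 over all probe sets in limma), with 8.56 to 8.81 in TAC arrays and 7.70 to 8.32 in sham arrays. The dimmer probe sets 1424475_at (0.46, adjusted p = 0.0991) and 1424476_at (0.05, adjusted p = 0.797) did not pass, although the first did without sham replicate 1 (adjusted p = 0.0458). Stk11 at probe set 1418644_a_at read 10.20, 10.21, 10.18 and 10.27 in TAC arrays, against 10.36, 10.15, 10.23, 10.38 and 10.30 in sham arrays. The groups overlapped, and they differed by -0.07 (95% confidence interval -0.21 to 0.08, adjusted p = 0.529 in limma over all genes). Its other probe set, 1448062_at, lay below the median of all probe sets, at 4.89 to 5.11 in TAC arrays and 4.80 to 5.24 in sham arrays, and differed by 0.01 (adjusted p = 0.957).

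The rest of the pathway was described from lists of other upstream partners, related kinases, regulators and substrates, 72 genes of which 68 were measured. Of these 8 rose (5 without TAC replicate 1), against 12.8% of all genes, and 17 fell, against 12.3% of all genes. The share that rose was near that of all genes. Their median difference was -0.10, and that of all genes was -0.0038. These lists were chosen with earlier results of these data known, so the shares are no test of them. Among 6 measured partners of the upstream kinases and the muscle gamma subunit Prkag3, 2 rose and 0 fell, against 12.8% and 12.3% of all genes. They were Strada, the pseudokinase that activates LKB1 (0.29, SE 0.07), and Map3k7, the kinase TAK1 (0.24, SE 0.06). Strada did not pass with the mean of its 4 probe sets (0.02, adjusted p = 0.89 in limma), nor Map3k7 without TAC replicate 1 (adjusted p = 0.0569). Prkag3 missed the threshold with a difference of 0.19 (adjusted p = 0.416).

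Of 12 kinases related to AMPK, which LKB1 also activates, 3 rose and 2 fell, against 12.8% and 12.3% of all genes. Nuak1 rose by 1.69 (SE 0.12, adjusted p = 9.5e-06 in limma), with 10.87, 10.65, 11.25 and 10.98 in TAC arrays, against 9.34, 9.06, 9.14, 9.36 and 9.37 in sham arrays. The microtubule-affinity kinase gene Mark1 rose by 0.38, and Nuak2, named after its values were seen, by 0.80 with overlap between the groups. The Nuak2 call was lost without TAC replicate 1, 2 or 3 or sham replicate 3 (highest adjusted p = 0.0856). Snrk fell by 0.46 at its brighter and by 0.48 at its other probe set. Sik2 fell by 0.30 at its brightest probe set, while its other 2 probe sets differed by 0.03 and 0.06 and did not pass, and with the mean of its probe sets it did not pass (-0.07, adjusted p = 0.425 in limma).

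Of 20 regulators and phosphatases 1 rose and 3 fell, against 12.8% and 12.3% of all genes. The phosphatase gene Ppm1e, whose product can dephosphorylate AMPK, rose by 1.54 (SE 0.10, adjusted p = 6.04e-06 in limma), with 9.93, 9.91, 10.12 and 10.36 in TAC arrays, against 8.56, 8.65, 8.54, 8.54 and 8.38 in sham arrays. The groups did not overlap. Folliculin, encoded by Flcn, is a partner of the AMPK-binding Fnip proteins. Flcn fell by 0.61 (SE 0.11, adjusted p = 0.00295), with 10.75 to 11.31 in TAC arrays and 11.50 to 11.76 in sham arrays. Lamtor2 and Lamtor4, genes of the lysosomal Ragulator complex, fell by 0.36 and 0.31. Lamtor2 did not pass with the mean of its probe sets (adjusted p = 0.0874), nor Lamtor4 without TAC replicate 3 (adjusted p = 0.0524).

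Of 30 genes of AMPK substrates 12 fell and 2 rose, against 12.3% and 12.8% of all genes. The lists were chosen with earlier results of these data known, so these shares are no test of the lists. Of the 12, Lipe, Pnpla2, Gys1, Pfkfb2 and Ulk1 did not pass with the mean of their probe sets. In lipid metabolism 3 of 6 fell and 0 rose. Acacb encodes the acetyl-CoA carboxylase that makes malonyl-CoA at mitochondria. It fell by 0.49 (SE 0.08, adjusted p = 0.00107 in limma), with 11.90 ± 0.11 in TAC and 12.39 ± 0.10 in sham (SD, n = 4 and 5), and its dim second probe set differed by -0.03, so that the mean of both was -0.26 (adjusted p = 0.0163). The lipase genes Lipe and Pnpla2 fell by 0.59 and 0.41. Neither passed with the mean of its probe sets (adjusted p = 0.309 and 0.288 in limma), and the second Lipe probe set differed by 0.35 in the opposite direction (adjusted p = 0.0594).

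In glucose metabolism 3 of 6 fell and 1 rose, against 12.3% and 12.8% of all genes. Tbc1d4, which controls the movement of glucose transporters to the cell surface, fell by 0.95 (SE 0.19, adjusted p = 0.0048 in limma) and by 0.83 at its other probe set. The glycogen synthase gene Gys1 fell by 0.37 and the phosphofructokinase-2 gene Pfkfb2 by 0.61, and neither passed with the mean of its probe sets (adjusted p = 0.231 and 0.793). Pfkfb3 rose by 0.51 (0.29 as the mean over all its probe sets), a call that was lost when any of 7 arrays was omitted singly (highest adjusted p = 0.123, without TAC replicate 3), and kept without TAC replicate 2 or without sham replicate 5.

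Of 7 substrates in growth and autophagy 1 rose and 2 fell, against 12.8% and 12.3% of all genes. The autophagy gene Becn1 rose by 0.44 (SE 0.09, adjusted p = 0.00512 in limma). Eef2k, a kinase gene of translation elongation, and the autophagy kinase gene Ulk1 fell by 0.25 and 0.22, and each call was lost when any of 6 arrays was omitted singly (highest adjusted p = 0.113). The omissions that kept them were TAC replicate 1 and sham replicates 2 and 3 for Eef2k, and TAC replicate 4 and sham replicates 1 and 2 for Ulk1. The other Ulk1 probe set differed by 0.09 in the opposite direction, and with the mean of both Ulk1 did not pass (-0.07, adjusted p = 0.512 in limma). Eef2k did not pass under cyclic loess (adjusted p = 0.05). Its other probe sets differed by -0.60 (adjusted p = 0.012 in limma over all probe sets) and by -0.03 (adjusted p = 0.889). With the mean of its probe sets Eef2k passed (-0.29, adjusted p = 0.017 in limma). Of 11 substrates in mitochondria and transcription 4 fell and 0 rose, against 12.3% and 12.8% of all genes. Ppargc1a, the gene of the mitochondrial coactivator PGC-1alpha, fell by 0.85 (SE 0.11, adjusted p = 0.000372), with 10.67 to 11.18 in TAC arrays and 11.60 to 11.99 in sham arrays. The histone deacetylase genes Hdac5 and Hdac4 fell by 0.70 and 0.53 and the transcription factor gene Foxo3 by 0.51. Hdac5 had 1 probe set. A second Hdac4 probe set differed by -0.48 and the last by 0.06, and the mean of the 3 was -0.31 (adjusted p = 0.00542 in limma). Of the other Foxo3 probe sets 1 differed by -0.57 and 1 by -0.02, and the mean of the 3 was -0.36 (adjusted p = 0.000878).

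**Figure D4:**
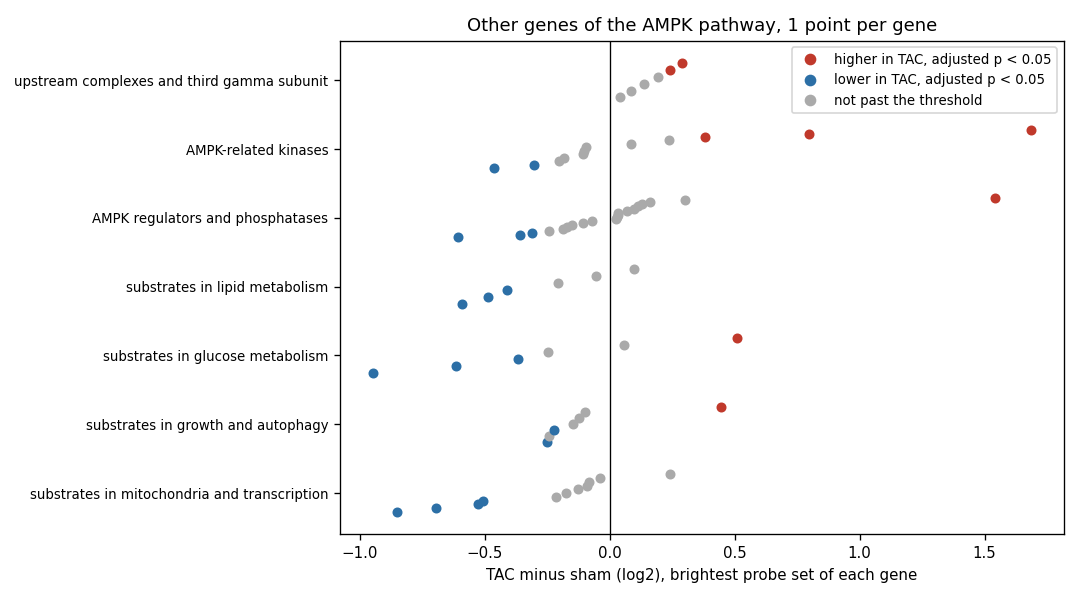
Log2 differences (TAC minus sham) of 68 other genes of the AMPK pathway at their brightest probe sets, 1 point per gene in 7 lists, with red for higher and blue for lower at an adjusted p below 0.05. The 8 red points include Nuak1 (1.69) and Ppm1e (1.54), and 12 of the 17 blue points are in the 4 lists of substrates.

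For each member that passed, the 3 genes with the most similar profile over the 9 arrays were found by the root mean square distance between log2 values, each gene less its own sham mean. Nearest to Prkab2 were Slc7a6, Ero1a and Trim46, at distances of 0.092 to 0.108. Nearest to Prkab1 were Gpcpd1, Gramd4 and Gypc, at 0.062 to 0.070. Nearest to Prkag2 were Nifk, Osbpl5 and Rhbdf1, at 0.095 to 0.103. Nearest to Prkag1 were Cdan1, Spg7 and Gm2115, at 0.037 to 0.044, and nearest to Camkk2 were Lnx1, Tmem184c and Rgs10, at 0.040 to 0.063. No other member was among these genes.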

How the data were processed

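RNA of left ventricular tissue was hybridised to Affymetrix arrays. Per the submitters' processing notes the authors summarised probes by RMA (version not given), which yields log2 values. The arrays carry no coordinates, and promoter windows are those of RefSeq. The table held 45101 probe sets, of which 64 controls were left out. The platform annotation gave 34945 probe sets 1 gene symbol and 932 several, and 9160 were not listed.

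The fits used R 4.3.3 and limma 3.58.1 (two-sided, group as the only term), over 45037 probe sets, and over 18193 genes with the probe set of the highest mean standing for each gene. Adjusted p-values given with a probe set's number are over all probe sets unless said otherwise, and those of genes are over all genes. Paralogue pairs were tested by exact permutation (two-sided). The fits were tried on simulated data with independent normal noise and far fewer changed features than were called here. That trial does not show how well the fits suit these arrays. Named were all members, up to 4 called genes of each list by p, and 3 similar genes per called member. The members and lists were chosen with earlier results of these data known. Alternatives were the mean of probe sets, array weights, cyclic loess, centring, robust fitting with a variance trend, a filter on dim features, only probe sets with 1 symbol and leaving out each array. Member probe sets were also tested by exact permutation, without adjustment. The number of arrays limits the precision. Figures were made in Python 3.11.15 with matplotlib 3.10.9.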

Additional observations from a re-analysis of the deposited data

Results flagged for a closer look

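Of 48 sets of arrays examined (the TAC or the sham arrays of a probe set or pair), 2 held a value far from the others by Dixon's test, and chance alone gives about 1 in 20. In Prkaa1 probe set 1437539_at, sham replicate 2 read 7.17, while the other sham arrays read 7.42 to 7.47. In Prkag1 probe set 1433533_x_at, TAC replicate 4 read 10.81, while the other TAC arrays read 10.44 to 10.48.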

How the results depend on the processing

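The counts of member genes, 3 higher and 2 lower, were the same in number under all 6 alternatives that apply to them and on leaving out each array. The 8 higher probe sets numbered 8 to 9. The 3 lower probe sets numbered 5 with only features above the median, where 17 of the 21 were left, and 2 to 5 on leaving out 1 array, with 5 without sham replicate 5. The other pathway genes that rose numbered 5 to 8 on leaving out 1 array, with 5 without TAC replicate 1, and those that fell numbered 14 to 19. Under the 6 other alternatives 8 to 10 rose and 12 (mean of probe sets) to 22 (centring) fell. The beta pair ranged from 1.25 to 1.46 and the gamma pair from 0.94 to 1.08 on leaving out 1 array. Both passed each time, which was fixed in advance because groups without overlap stay so when 1 array is left out. The alpha pair, -0.24, was -0.44 and passed with the mean of probe sets (exact permutation p = 0.0159), and -0.30 to -0.12 on leaving out 1 array, never passing. Signs of values that did not pass turned under array weights for Prkaa2 1434766_at (0.016, and 0.023 in the gene fit), Prkag2 1431263_at (-0.037), Stk11 1448062_at (-0.011) and Camkk2 1424476_at (-0.042). On leaving out 1 array these 4 probe sets ranged from -0.079 to 0.039, -0.045 to 0.065, -0.043 to 0.065 and -0.013 to 0.12. The cause was not tested. Prkag1 1433533_x_at, not past the threshold, passed under the variance trend (adjusted p = 0.0231), array weights (0.0102), the filter (0.027) and adjustment over probe sets with 1 symbol (0.0467) in limma. Of the values of single genes and probe sets under an alternative, 754 kept their direction and side of the threshold, 41 lost a call, 12 gained one and 18 changed sign. Centring moved the median difference of all genes from -0.0038 to -0.055. No paired analysis was possible because the labels carry no shared replicate numbers.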
